A study of Rattus norvegicus with 40 samples.

Results

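The comparison described here set the hippocampus of sham-exposed rats against the amygdala of sham-exposed rats, with no blast-exposed tissue in it. It used all 10 sham libraries of these regions, 5 per region, out of 40 libraries in the series, and all 22409 genes that both regional tables of counts list. The study sequenced total RNA of rat brain regions 12 months after blast or sham exposure of the animals, with 5 blast and 5 sham libraries per region. Its other regions were anterior cortex and cerebellum. The label of the sham animals is sham-exposed, and no transgene or other treatment is named for them. The sources used here give no strain, sex or age. Titles number the libraries without saying whether libraries of the same number came from one rat or how many rats gave the tissue. The p-values therefore describe the spread between these 10 libraries, part of which may be technical. The region and the table that holds it cannot be told apart, since each region was deposited as a table of its own.

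The hippocampus is a folded sheet of cortex in which granule cells of the dentate gyrus project through mossy fibres to the pyramidal cells of CA3, which in turn project to CA1, and it is known for its part in spatial and episodic memory. The amygdala joins a cortex-like basolateral complex of glutamatergic neurons to central and medial nuclei that are built, like the striatum, mainly of GABAergic neurons, and it is known for its part in fear and in emotional learning. Both regions arise from the telencephalon, the first from the medial pallium and the second from the pallium and the subpallium together.

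Total counts ran from 11589358 to 19156693 in the 5 hippocampus libraries and from 12653267 to 16433786 in the 5 amygdala libraries, with 18643 to 19540 and 18950 to 19509 genes holding reads. Levels are in CPM, the counts of a gene per 1000000 counts of the library after scaling by the trimmed mean of M values, as mean ± SD over 5 libraries unless single libraries are listed. Single libraries are listed in the order 11, 13, 14, 15 and 33 for the hippocampus and 11, the unnumbered library, 14, 15 and 33 for the amygdala; the unnumbered library is the one whose number differs between its title and its column. Fold changes are log2 of hippocampus over amygdala ± SE from the quasi-likelihood F test of edgeR with its p adjusted after Benjamini and Hochberg over all tested genes, so a negative value means a higher level in the amygdala. Genes with an adjusted p below 0.05 are referred to as called. Hippocampus library 11 stood apart by genes of the choroid plexus, with a summed level of 7022 CPM over the list against 134 to 492 CPM in the other 4 hippocampus libraries. Hippocampus library 14 stood apart along the second principal component, which held 19.6% of the variance, and had the highest summed level of ribosomal protein genes, 7706 CPM against 4014 to 4758 CPM in the other 4. Where a library held no read of a gene, a level of up to 3 reads remains possible, which is 0.157 to 0.259 CPM at these depths (counting error only).

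Of 15058 genes with enough reads to be tested, 3455 (22.9%) were called, 1721 of them (11.4%) higher in the hippocampus and 1734 (11.5%) higher in the amygdala. The median log2 fold change of all tested genes was 0.04. Large differences lay more often on the side of the amygdala: 663 called genes were at least 2-fold higher there and 394 in the hippocampus, and 61 against 28 genes were at least 8-fold higher. In 2821 tested genes (18.7%) the 5 libraries of one region all lay above the 5 of the other, and 2588 of these were also called; the hippocampus was above in 9.45% and the amygdala in 9.28% of tested genes. Region was the main axis of the data, since the first principal component held 44.7% of the variance and separated all hippocampus from all amygdala libraries. The count rose to 4684 without hippocampus library 14 and fell to 2730 without amygdala library 33.

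**Figure D1:**
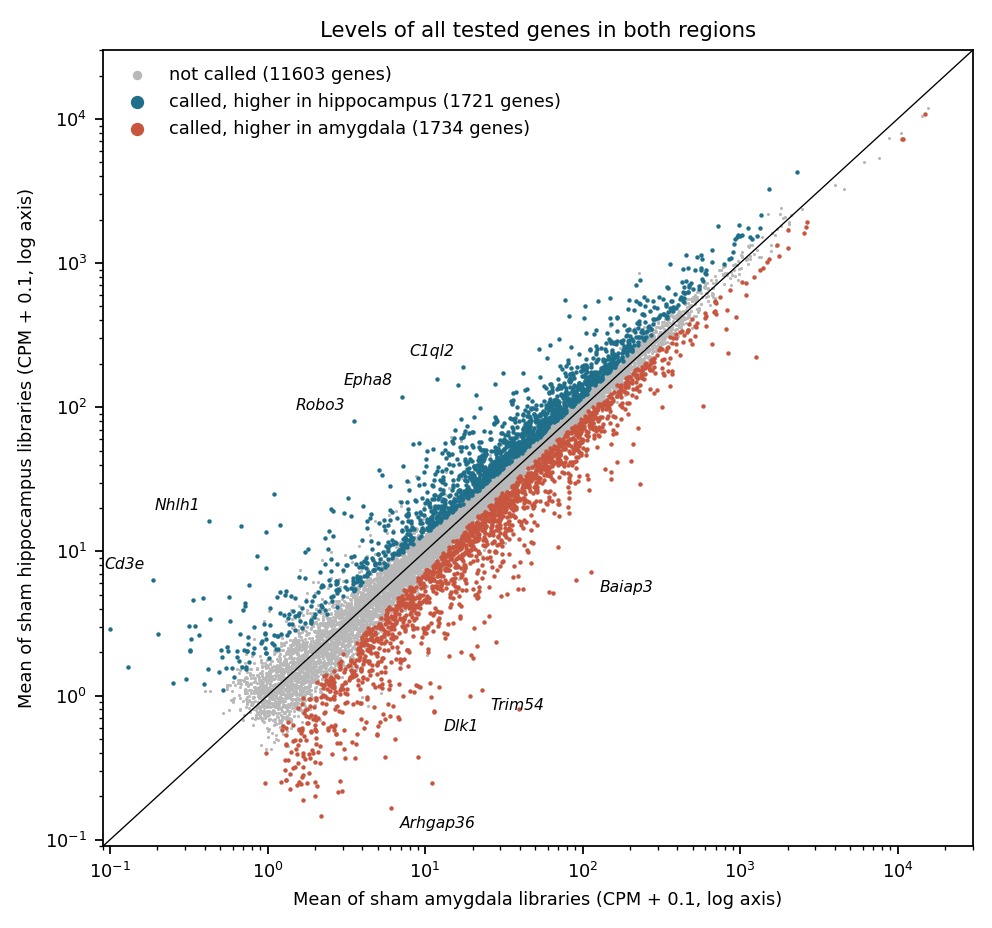
Mean level of each of the 15058 tested genes in the 5 sham amygdala libraries (x axis) and the 5 sham hippocampus libraries (y axis), both as CPM + 0.1 on log axes, with the diagonal marking equal levels. Blue points are the 1721 genes called higher in the hippocampus, red points the 1734 called higher in the amygdala; 394 of the blue and 663 of the red genes differ by at least 2-fold, and those far from the diagonal include Nhlh1 and Baiap3.

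The genes with the largest excess in the hippocampus were a transcription factor, guidance receptors and genes of dentate granule cells. Nhlh1, a basic helix-loop-helix transcription factor of developing neurons (chromosome 13, 90437956 to 90443157, minus strand, as the deposited table gives it, without naming the genome build), stood at 15.2, 13.6, 16.4, 14.5 and 20.4 CPM in the hippocampus libraries and at 0.541, 0.446, 0, 0.281 and 0.37 CPM in the amygdala libraries. The lowest hippocampus library thus lay far above the highest amygdala library, and the log2 fold change was 5.57 ± 0.37 (adjusted p = 8.25e-07). Robo3, a receptor that lets growing axons cross the midline (chromosome 8, 39892792 to 39907478, minus strand), gave 57.4, 91.7, 69.2, 66.5 and 116 CPM against 3.71, 3.87, 3.44, 2.88 and 3.21 CPM. Its log2 fold change was 4.55 ± 0.21 (adjusted p = 6.55e-08), and its amygdala values kept within a narrow range.

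Prox1, the homeodomain factor that sets and keeps the identity of dentate granule cells (chromosome 13, 108382399 to 108443294, plus strand), reached 162, 118, 69.1, 157 and 211 CPM in the hippocampus and 12.8, 16.4, 17.9, 17.5 and 15.6 CPM in the amygdala. Hippocampus library 14 was the lowest of its group and still lay above every amygdala library, and the log2 fold change was 3.16 ± 0.25 (adjusted p = 3.02e-06). C1ql2, a secreted protein of mossy fibre synapses, gave 168, 179, 246, 128 and 226 CPM against 24.6, 14.5, 15.6, 17.7 and 14.5 CPM, with a log2 fold change of 3.45 ± 0.20 (adjusted p = 4e-07). The groups did not overlap for either gene. Epha8, a receptor for membrane-bound ephrins, had 121, 162, 41.6, 119 and 149 CPM in the hippocampus, where library 14 was again the lowest, and 9.97, 7.51, 4.74, 7.73 and 5.18 CPM in the amygdala, and its log2 fold change was 4.08 ± 0.35 (adjusted p = 4.81e-06). Lrrc10b, a leucine-rich repeat gene, was abundant and even among the hippocampus libraries at 158 ± 19.4 CPM, against 11.8 ± 4.51 CPM in the amygdala (3.74 ± 0.24 on the log2 scale, adjusted p = 6.07e-07).

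The other genes of this group were scarcer. Klk8, the protease neuropsin, stood at 13.5 ± 5.04 against 0.881 ± 0.431 CPM (3.93 ± 0.36, adjusted p = 8.54e-06). The olfactory receptor gene Olr1462, the lysozyme-like gene Lyzl4 and the proton channel gene Otop3 differed by 4.66 ± 0.32, 3.58 ± 0.37 and 3.12 ± 0.25, all 3 from amygdala means below 1 CPM. Olfactory receptors form a large family of similar genes, and the treatment of reads that match several of them is not stated, so this value is uncertain. Cd3e, which encodes a chain of the T cell receptor complex, had the largest fitted fold change, 6.04 ± 0.64 (adjusted p = 2.47e-05). Its reads numbered 31, 141, 172, 65 and 73 in the hippocampus libraries and 0, 0, 3, 3 and 0 in the amygdala libraries. The partner chains of the same complex were near 0 in both regions: Cd3d had 0 reads in every hippocampus library and at most 2 in an amygdala library, and Cd3g at most 2 and 4.

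Among the genes with the largest excess in the amygdala were genes of secretion and signalling. Baiap3, a relative of Munc13 that acts in the traffic of dense-core vesicles (chromosome 10, 14599197 to 14613878, minus strand), had the smallest p of all tested genes. Its level was 116, 103, 134, 110.3 and 101 CPM in the amygdala and 7.76, 6.55, 8.94, 6.01 and 6.36 CPM in the hippocampus, and its log2 fold change was -3.98 ± 0.13 (adjusted p = 8.6e-09). Every amygdala library was thus far above every hippocampus library. The gene model of Baiap3 overlaps that of Tsr3 on the opposite strand, and it is not stated whether reads were counted by strand, so reads of this pair could not be told apart.

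Coch, which encodes the extracellular matrix protein cochlin, gave 110.4, 77.2, 83.3, 52.4 and 127 CPM in the amygdala and 14.2, 3.76, 3.65, 4.99 and 4.46 CPM in the hippocampus, where library 11 was the highest. The log2 fold change of Coch was -3.88 ± 0.39 (adjusted p = 1.68e-05). Dlk1, an imprinted gene for a Notch-like membrane protein (chromosome 6, 133552821 to 133583751, plus strand), had 9.97, 9.89, 17.6, 11.4 and 8.02 CPM against 1.01, 0.667, 0.317, 1.25 and 0.165 CPM, with a log2 fold change of -4.07 ± 0.40 (adjusted p = 1.62e-05). Tnnt2 and Trim54, a cardiac troponin and a ubiquitin ligase of muscle, reached 19.2 ± 3.62 and 22.8 ± 4.69 CPM in the amygdala and about 1 CPM or less on average in the hippocampus (-4.36 ± 0.33 and -4.42 ± 0.40). Arhgap36, a GTPase-activating protein, Wnt6, a Wnt ligand, Pappa2, a protease of insulin-like growth factor binding proteins, and Ptgfr, the prostaglandin F receptor, had log2 fold changes of -6.27 ± 0.50, -4.85 ± 0.54, -4.27 ± 0.45 and -4.03 ± 0.55, with 5.45 to 8.97 CPM in the amygdala. The unnamed transcript AABR07040887.1 on chromosome X gave 10.9 ± 2 against 0.147 ± 0.097 CPM (-6.1 ± 0.35). Its hippocampus mean lay below the 0.157 to 0.259 CPM that a library without reads allows, so the size of this fold change is uncertain.

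**Figure D2:**
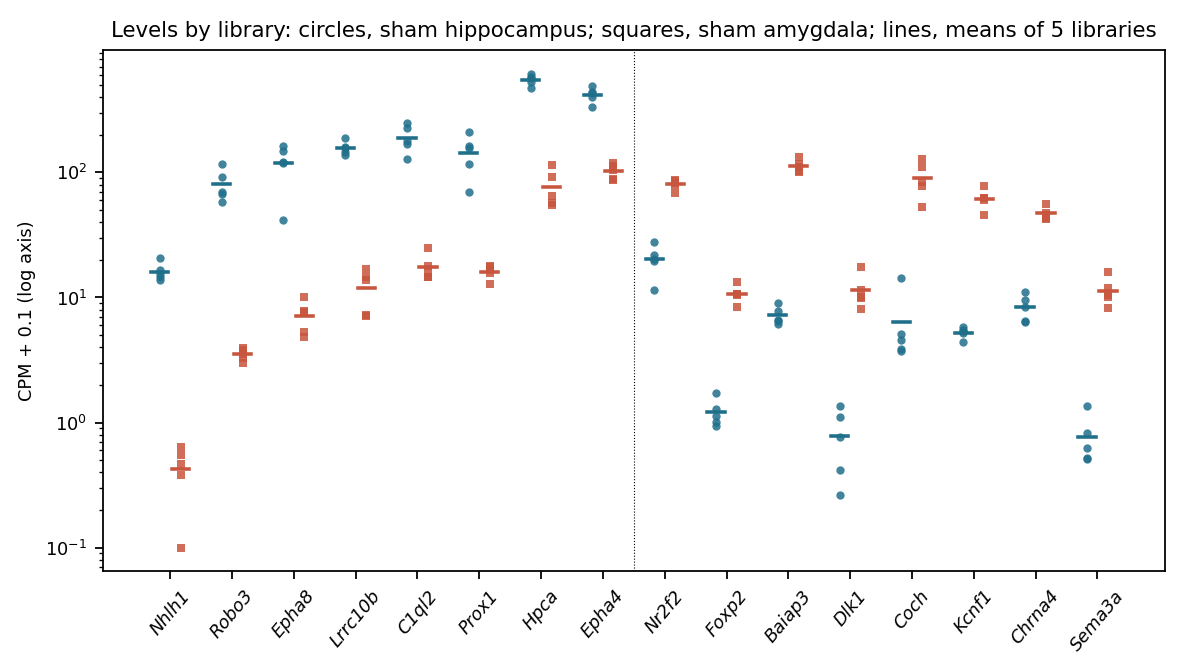
Level of 16 genes in each of the 10 sham libraries as CPM + 0.1 on a log axis, with blue circles for the hippocampus, red squares for the amygdala and lines at the means of 5 libraries. The 8 genes left of the dotted line were higher in every hippocampus library and the 8 on the right in every amygdala library; Epha8 and Prox1 were lowest in hippocampus library 14 and Coch highest in hippocampus library 11.

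The 250 bases upstream of the annotated start are shown for a pair of genes from each side, since these promoters belong to some of the widest differences between the regions; the sequences are RefSeq's for build GRCr8, 5′ to 3′ on the strand of the gene, with capitals where a searched motif lies. The motifs were the E-box CAGATG of the NeuroD family, the Meis core TGACAG, the homeodomain core TAATTA, the cyclic AMP response element TGACGTCA and the TATA box TATAAA, each on both strands.
Nhlh1, chr13:87054935-87055184, minus strand: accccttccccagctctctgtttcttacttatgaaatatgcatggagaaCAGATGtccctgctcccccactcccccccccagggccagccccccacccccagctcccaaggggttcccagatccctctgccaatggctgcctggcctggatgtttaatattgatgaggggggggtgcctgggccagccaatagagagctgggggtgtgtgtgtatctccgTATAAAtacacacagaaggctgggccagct
Robo3, chr8:45340223-45340472, minus strand: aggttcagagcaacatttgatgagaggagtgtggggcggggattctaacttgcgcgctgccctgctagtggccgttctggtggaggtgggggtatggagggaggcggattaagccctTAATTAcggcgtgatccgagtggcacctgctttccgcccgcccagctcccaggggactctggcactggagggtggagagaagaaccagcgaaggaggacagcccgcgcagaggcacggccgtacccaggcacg
Baiap3, chr10:14777517-14777766, minus strand: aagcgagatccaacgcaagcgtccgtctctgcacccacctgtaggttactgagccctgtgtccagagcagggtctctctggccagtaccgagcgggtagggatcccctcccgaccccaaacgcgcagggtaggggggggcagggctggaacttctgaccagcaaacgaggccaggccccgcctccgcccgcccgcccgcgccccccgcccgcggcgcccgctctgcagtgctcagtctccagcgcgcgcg
Dlk1, chr6:134192347-134192596, plus strand: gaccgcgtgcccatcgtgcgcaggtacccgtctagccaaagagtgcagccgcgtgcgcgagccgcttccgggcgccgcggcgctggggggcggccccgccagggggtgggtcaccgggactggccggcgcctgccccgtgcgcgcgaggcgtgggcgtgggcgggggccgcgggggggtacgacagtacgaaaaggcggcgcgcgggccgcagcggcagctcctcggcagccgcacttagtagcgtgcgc
The window of Nhlh1 held 1 CAGATG, 201 bases before the start, and 1 TATAAA, 30 bases before it, and that of Robo3 held 1 TAATTA 133 bases before the start. None of these motifs was found in the windows of Baiap3 and Dlk1, which were richer in G and C, at 70.8% and 78% against 58.4% for Nhlh1 and 62.8% for Robo3. RefSeq promoters were matched by symbol for 10699 tested genes, 1287 of them called higher in the hippocampus and 1247 called higher in the amygdala. CAGATG lay in 13.7% of all 27457 promoters, in 9.34% of the tested genes, in 9.79% of those higher in the hippocampus and in 10.4% of those higher in the amygdala. In the same order over the last 3 groups, the Meis core lay in 13.9%, 14.4% and 12.9%, TAATTA in 2.05%, 1.94% and 2.33%, and TATAAA in 6.46%, 6.29% and 7.46%; over all promoters these shares were 15.6%, 4.94% and 13.1%. The cyclic AMP response element was in 1.7% of all promoters, 2.85% of tested promoters, 2.95% of those higher in the hippocampus and 1.6% of those higher in the amygdala. These shares are descriptions of letters in a window and were not tested.

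Markers of the dentate gyrus were mostly higher in the tissue labelled hippocampus. Of 18 tested genes of a list of dentate granule cell genes, 11 were called higher in the hippocampus and 3 higher in the amygdala, with a median log2 fold change of 0.95 against 0.04 for all tested genes. Besides Prox1 and C1ql2 they included Dsp, which encodes desmoplakin (2.88 ± 0.25), the cation channel gene Trpc6 (2.11 ± 0.13), the guidance cue Sema5a (2.07 ± 0.19) and Plk5, a polo-like kinase (1.65 ± 0.15). The phospholipase gene Pla2g4e (-2.25 ± 0.22), Marcksl1, a regulator of actin (-1.53 ± 0.17), and Sema5b (-0.71 ± 0.14) were the 3 that were higher in the amygdala. Calb1, the calcium buffer calbindin, is strong in granule cells but stood at 102 ± 18.1 and 104 ± 7.31 CPM, with no call (-0.03 ± 0.11, adjusted p = 0.882). In bulk tissue, fewer cells of a type and less RNA per cell cannot be told apart, here and below. The counts of each list, here and below, stand beside the shares over all tested genes. These were 11.4% called higher in the hippocampus and 11.5% called higher in the amygdala.

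Genes of the pyramidal fields were less one-sided. Of 10 tested CA1 genes 4 were higher in the hippocampus and 1, Dcn, in the amygdala. Pou3f1, a POU-domain factor of CA1 neurons, gave 69.7 ± 12.9 against 15.4 ± 2.56 CPM (2.18 ± 0.15, adjusted p = 1.3e-06), and Itpka, an inositol trisphosphate kinase of dendritic spines, 183 ± 27.1 against 105 ± 9.21 CPM (0.8 ± 0.11, adjusted p = 0.000168). Wfs1, an endoplasmic reticulum protein that marks dorsal CA1, differed by 0.48 ± 0.16 (adjusted p = 0.0431) and its libraries overlapped. Dcn, which encodes the matrix proteoglycan decorin, differed by -1.01 ± 0.32 (adjusted p = 0.0399). Dcn is also on the list of meninges and fibroblasts described below, and the part of meningeal tissue in its level was not tested. The calls of Wfs1 and Dcn were both lost without any single one of 7 libraries (hippocampus 13, 15 or 33, or amygdala 11, 15, 33 or the unnumbered one), with adjusted p-values of 0.0704 to 0.112 for Wfs1 and 0.052 to 0.116 for Dcn. Of 18 genes of CA2, CA3 and hilar mossy cells 6 were higher in the hippocampus, among them the kainate receptor gene Grik4 (1.63 ± 0.11), the apoptosis regulator Bok (1.51 ± 0.11) and the sodium-proton exchanger gene Slc9a4 (1.24 ± 0.20). The other 7 called members were higher in the amygdala, with Coch, Calb2, which encodes calretinin (-2.18 ± 0.20), and the monooxygenase Fmo1 (-1.72 ± 0.28) at the head.

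Genes listed for the amygdala nuclei went mostly the other way: 10 of 19 were higher in the amygdala and 4 higher in the hippocampus, with a median of -0.61. Baiap3 and Dlk1 are on this list and also on the list of hypothalamic genes described below, and the part of hypothalamic tissue in their levels was not tested. After Baiap3 and Dlk1 came Meis2, a homeodomain factor of intercalated and central neurons, at 65.4 ± 8.13 against 24.8 ± 5.34 CPM (-1.39 ± 0.15, adjusted p = 2.74e-05). Prkcd, the kinase that marks lateral central neurons, stood at 19.1 ± 1.75 against 8.24 ± 2.46 CPM (-1.21 ± 0.19, adjusted p = 0.000529). The 4 listed genes that were higher in the hippocampus were Rspo2, a secreted amplifier of Wnt signals also known from basolateral neurons (2.06 ± 0.12), Bdnf (1.79 ± 0.20), the neurotensin gene Nts (2.34 ± 0.33) and the vesicular zinc transporter gene Slc30a3 (0.56 ± 0.10).

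**Figure D3:**
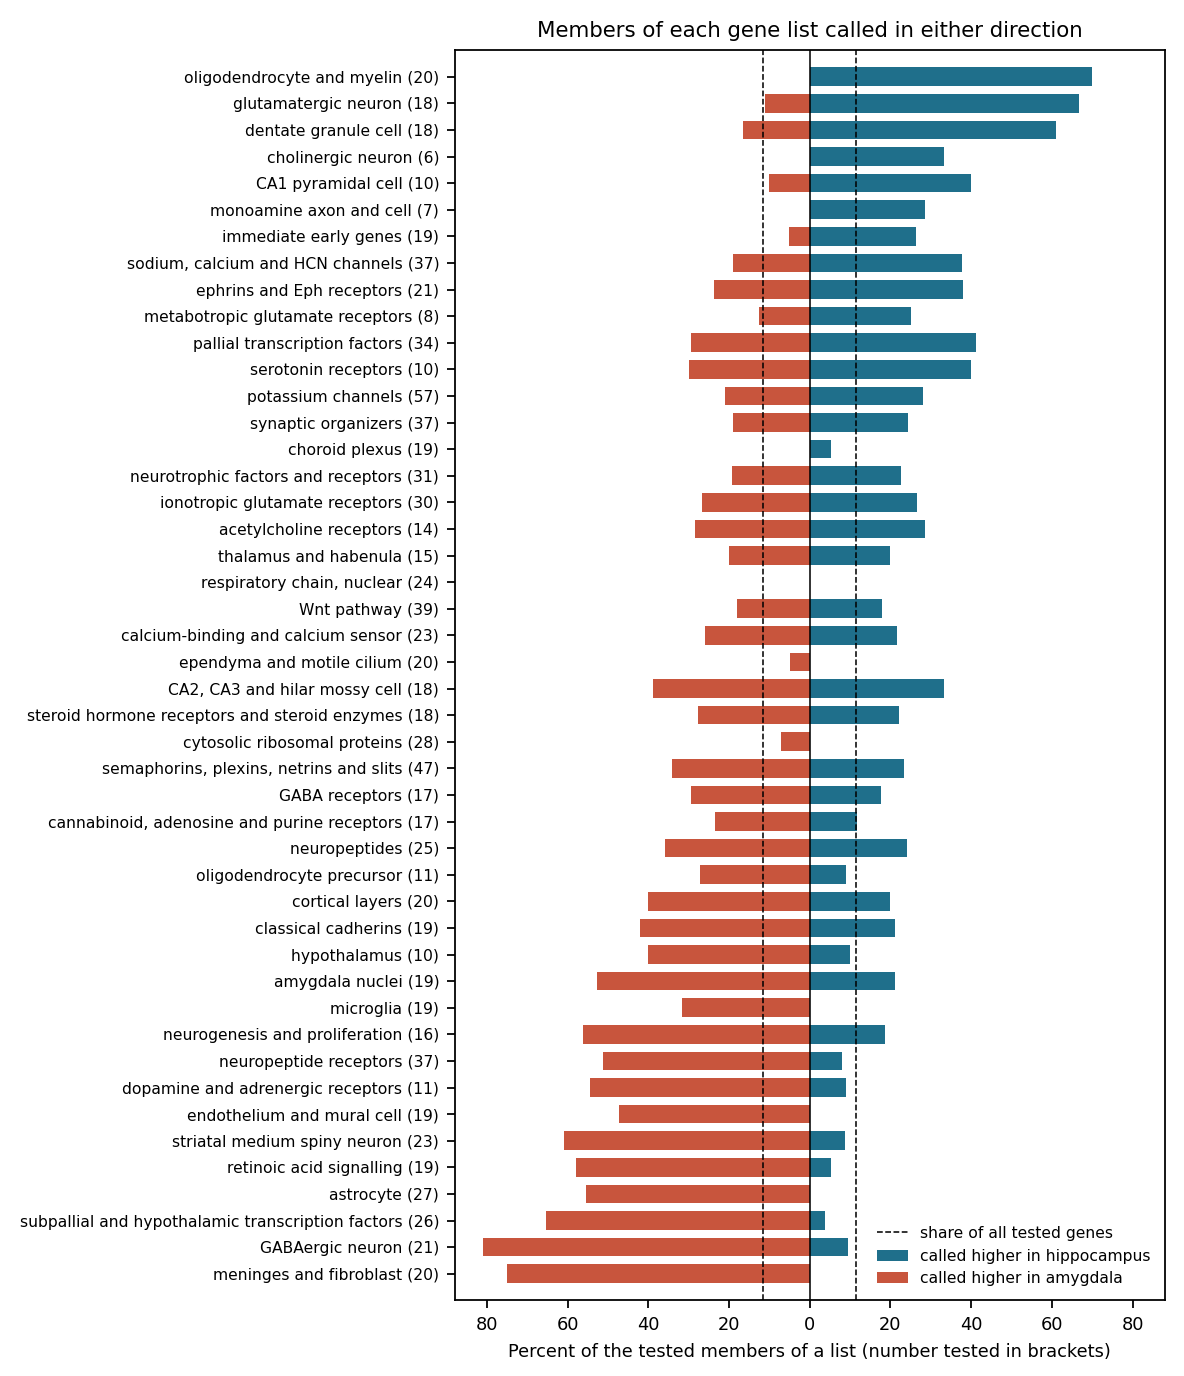
Share of the tested members of each gene list that was called higher in the hippocampus (blue, to the right) or higher in the amygdala (red, to the left), in percent, with the number tested in brackets. Dashed lines mark the shares over all tested genes, 11.4% and 11.5%; lists of myelin, glutamatergic neurons and dentate granule cells lean to the hippocampus and lists of meninges, GABAergic neurons and subpallial transcription factors to the amygdala.

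Transcription factors of the subpallium and hypothalamus were mostly higher in the amygdala. Of 26 tested factors 17 were higher in the amygdala and 1 in the hippocampus, with a median log2 fold change of -0.83. Foxp2, a forkhead factor of striatal and intercalated neurons, stood at 10.3, 10.5, 13.3, 10.6 and 8.26 CPM in the amygdala libraries and at 0.843, 1.03, 1.64, 1.17 and 0.909 CPM in the hippocampus libraries, without overlap (-3.21 ± 0.22, adjusted p = 1.12e-06). Foxp2 is also on the list of cortical layer genes described below, and the cells behind its level were not tested. Meis1, a cofactor of homeodomain proteins, gave 9.3 ± 1.12 against 2.21 ± 0.452 CPM (-2.07 ± 0.18, adjusted p = 5.85e-06). Dlx2 and Lhx6, factors of the GABAergic lineage, differed by -1.63 ± 0.23 and -1.35 ± 0.24, and Sp9 by -1.45 ± 0.18. Zfhx4 was the listed factor that was higher in the hippocampus (0.98 ± 0.16, adjusted p = 0.000663).

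Pallial factors were divided: 14 of 34 were higher in the hippocampus and 10 in the amygdala. Neurod6 and Neurod2, factors of differentiating pyramidal neurons, reached 173 ± 23 against 31 ± 8.98 CPM and 162 ± 28.7 against 53.6 ± 2.71 CPM, with log2 fold changes of 2.48 ± 0.18 and 1.59 ± 0.12. Bhlhe22, another helix-loop-helix factor, had a smaller difference that was even over libraries, 254 ± 18.3 against 111 ± 5.81 CPM (1.19 ± 0.08, adjusted p = 7.24e-07). Nr2f2, an orphan nuclear receptor, pointed to the amygdala with 68.2, 78.9, 85.8, 82.3 and 87.6 CPM against 27.7, 11.4, 19.4, 20.3 and 21.6 CPM, and the groups were clearly apart (-2.01 ± 0.18, adjusted p = 8.59e-06). Cux2 and Mef2c were also higher in the amygdala, with log2 fold changes of -1.68 ± 0.17 and -1.17 ± 0.11. Fezf2, a factor of deep cortical projection neurons, was not called (0.08 ± 0.18, adjusted p = 0.778).

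Genes of glutamatergic neurons were mostly higher in the hippocampus and those of GABAergic neurons mostly in the amygdala. Of 18 genes of glutamatergic neurons 12 were higher in the hippocampus and 2 higher in the amygdala (median 0.67). The vesicular glutamate transporter 1 gene Slc17a7 gave 2090.5, 2198, 1779, 2286 and 2440.3 CPM in the hippocampus and 1277, 1420.3, 1556, 1388 and 1119 CPM in the amygdala, a modest log2 fold change of 0.67 ± 0.11 (adjusted p = 0.000732). Slc17a6, which encodes vesicular glutamate transporter 2 and is typical of subcortical and medial amygdala neurons, went the opposite way with 4.47, 6.19, 7.19, 6.75 and 3.3 CPM against 23.3, 22.3, 20.9, 25.9 and 16.8 CPM (-1.96 ± 0.20, adjusted p = 2.33e-05). Nptx1, a pentraxin that clusters AMPA receptors, and Nrn1, a growth-promoting surface protein, were higher in the hippocampus by 1.32 ± 0.14 and 0.96 ± 0.09.

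Of 21 genes of GABAergic neurons 17 were higher in the amygdala and 2 in the hippocampus (median -0.85). Slc32a1, which loads GABA into vesicles, stood at 87.3 ± 10.8 against 48.2 ± 8.69 CPM (-0.86 ± 0.13, adjusted p = 0.000494). Gad1 and Gad2, the GABA-synthesising enzymes, were higher in the amygdala too (Gad1 -0.58 ± 0.12, adjusted p = 0.00447; Gad2 -0.84 ± 0.16, adjusted p = 0.00208), and the libraries of the regions overlapped for both. The 2 genes on the side of the hippocampus were Kit, a receptor tyrosine kinase (1.16 ± 0.14, adjusted p = 8.13e-05), and Pvalb, the parvalbumin gene (0.87 ± 0.21, adjusted p = 0.0108), whose log2 fold change was 0.57 without hippocampus library 14. A list of striatal medium spiny neuron genes had 14 of 23 members higher in the amygdala and 2, Pdyn and Scn4b, higher in the hippocampus. Striatum also adjoins the amygdala, and the part of these genes in other results was not tested.

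Neuropeptide genes were called on both sides, and their receptors mostly on the amygdala side. Of 25 tested genes of the neuropeptide list 6 were higher in the hippocampus and 9 in the amygdala. Pdyn, the precursor of dynorphins and a product of granule cells, gave 80.6, 75.8, 95, 72.1 and 93.1 CPM in the hippocampus and 21.8, 14.8, 12.3, 19.9 and 15.3 CPM in the amygdala (2.31 ± 0.15, adjusted p = 9.44e-07). Scg2, the granin of dense-core vesicles, and Nmb, the neuromedin B gene, were higher in the hippocampus by 1.03 ± 0.12 and 2.06 ± 0.25. Tac1, the precursor of substance P, was higher in the amygdala with 13.4, 11, 7.42, 8.02 and 12 CPM against 1.52, 2.18, 2.7, 1.76 and 1.32 CPM, and the 2 sets did not overlap (-2.43 ± 0.24, adjusted p = 1.73e-05). Cartpt and Nxph4 were also higher in the amygdala (-1.93 ± 0.33 and -3.46 ± 0.39). Nxph4 encodes a neurexophilin, not a neuropeptide, and is also on the list of cortical layer genes described below. Sst, Vip, Penk and Crh, outside the leading 3, had log2 fold changes of -1.41 ± 0.29, -1.18 ± 0.23, -1.46 ± 0.29 and -1.41 ± 0.35, and all 4 were called. The vasopressin gene Avp varied widely within both regions, at 1.82 ± 3.06 and 10.1 ± 17.7 CPM, and its difference was not called (-2.45 ± 1.22, adjusted p = 0.174).

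Of 37 tested receptor genes of neuropeptides 19 were higher in the amygdala and 3 in the hippocampus (median -0.79). Sstr1, a somatostatin receptor, stood at 54.2, 49.6, 52.2, 49.9 and 40.8 CPM in the amygdala and 17.3, 14.2, 18.1, 14.4 and 15.5 CPM in the hippocampus (-1.63 ± 0.11, adjusted p = 9.44e-07). Other receptors of the same family pointed to the hippocampus, Sstr4 by 1.04 ± 0.19 and Sstr3 by 0.62 ± 0.13, so the somatostatin receptors did not share a direction. Oprk1, the kappa opioid receptor for dynorphins, was at 3.5 ± 0.679 CPM in the amygdala and 0.266 ± 0.193 CPM in the hippocampus (-3.69 ± 0.39, adjusted p = 2.3e-05), the reverse of its ligand gene Pdyn. Calcr, the calcitonin receptor, was at 1.97 ± 0.814 against 0.135 ± 0.033 CPM (-3.76 ± 0.41, adjusted p = 3.4e-05). Its hippocampus mean lay below the 0.157 to 0.259 CPM that a library without reads allows, so the size of this fold change is uncertain. It ran from -3.91 to -2.84 over the alternative fits. Oxtr and Crhr1, the receptors of oxytocin and of corticotropin-releasing hormone, differed by -2.55 ± 0.33 and -1.82 ± 0.25. The third gene on the side of the hippocampus was Npy2r, a receptor of neuropeptide Y (0.91 ± 0.20), while Npy1r stood at 16.9 ± 1.58 and 17.3 ± 2.58 CPM with no call (-0.03 ± 0.13, adjusted p = 0.882).

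**Figure D4:**
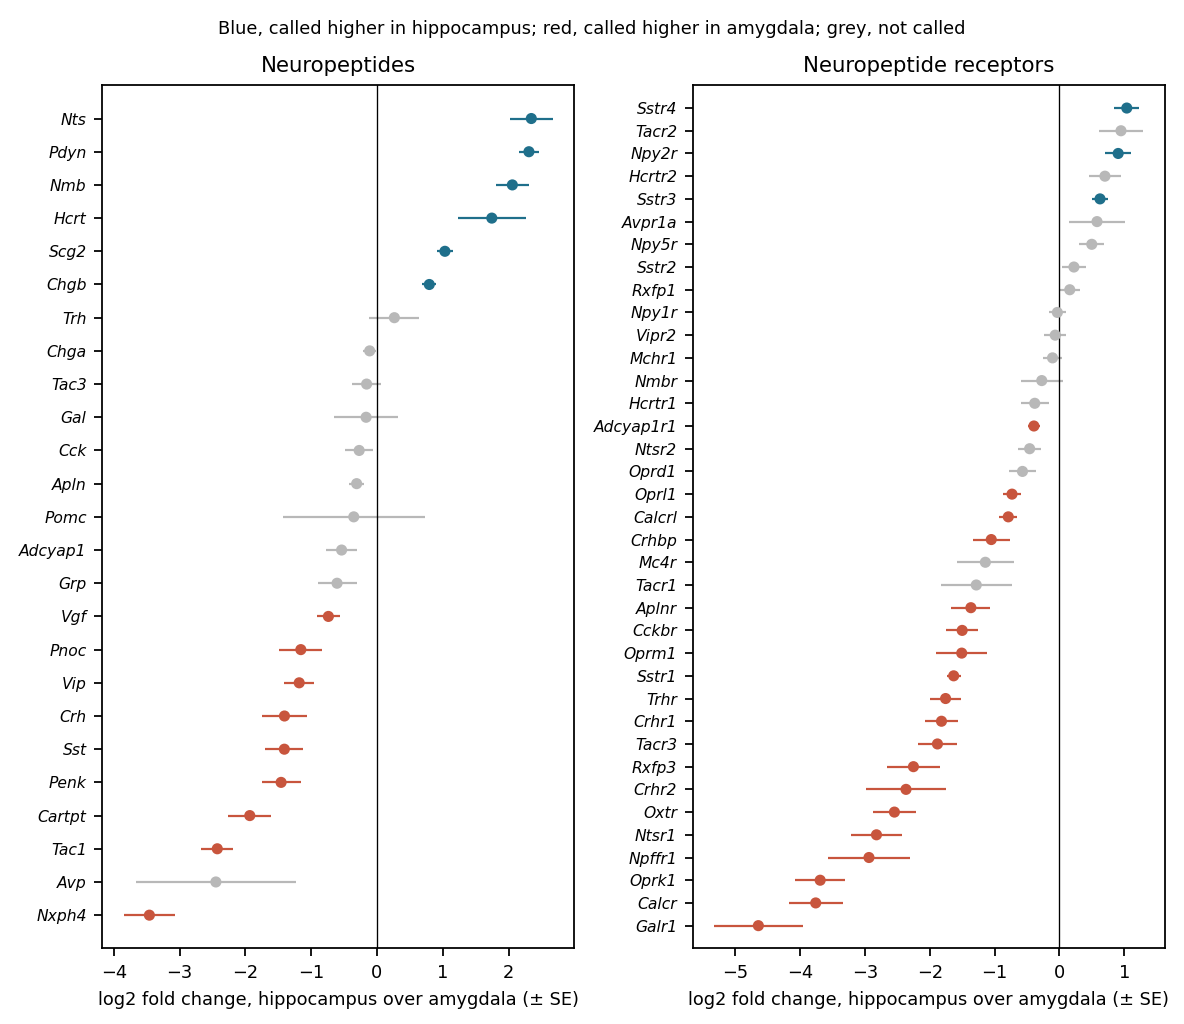
Log2 fold change of hippocampus over amygdala ± SE for the 25 tested genes of the neuropeptide list (left) and the 37 tested neuropeptide receptor and binding protein genes (right), ordered by size. Blue points were called higher in the hippocampus, red points higher in the amygdala and grey points were not called. On the left 6 genes are blue and 9 red, and on the right 3 are blue and 19 red.

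Receptor subunits of the same family were often called on opposite sides. Of 30 ionotropic glutamate receptor and auxiliary genes 8 were higher in each direction. Without hippocampus library 14 the count was 12 for the hippocampus and 8 for the amygdala. Grik4, the high-affinity kainate receptor subunit of mossy fibre synapses, gave 111 ± 11.6 against 35.9 ± 4.75 CPM (1.63 ± 0.11, adjusted p = 9.44e-07), and the auxiliary genes Cacng8 and Neto1 went with it (1.13 ± 0.08 and 1.22 ± 0.16). Grik1, another kainate subunit, went the other way (-1.19 ± 0.19, adjusted p = 0.000626), as did the NMDA receptor subunits Grin3a (-2.32 ± 0.30), whose gene model overlaps that of Ppp3r2, and Grin2d (-0.83 ± 0.13). The obligatory NMDA receptor subunit Grin1 was at 713 ± 93.6 and 596 ± 55.1 CPM and was not called (0.26 ± 0.10, adjusted p = 0.0954). Among 8 metabotropic receptors, Grm2 was higher in the hippocampus (0.9 ± 0.30, adjusted p = 0.0496, with overlapping libraries) and Grm8 in the amygdala (-2.34 ± 0.42). The call of Grm2 was lost without any single library other than hippocampus library 14 or amygdala library 11, with adjusted p-values of 0.0631 to 0.123.

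Among 17 GABA receptor genes 3 were higher in the hippocampus, or 5 without hippocampus library 14, and 5 in the amygdala. Gabra5, a subunit of extrasynaptic receptors on pyramidal cells whose gene model overlaps that of Luzp2, had 184, 177, 198, 196 and 203 CPM in the hippocampus and 79.8, 78.6, 60.2, 98.4 and 75.2 CPM in the amygdala (1.29 ± 0.11, adjusted p = 6.15e-06). Gabra3 had 25.4, 19.4, 21.5, 22.8 and 22.3 CPM against 58.3, 62.5, 78, 61.4 and 57.8 CPM (-1.52 ± 0.11, adjusted p = 1.42e-06), so that these 2 alpha subunits were opposite with no overlap of libraries. Gabra4 was higher in the hippocampus (0.88 ± 0.09), and Gabrg1 (-0.71 ± 0.10) and Gabrq (-3.31 ± 0.55) were higher in the amygdala.

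Receptors of monoamines and acetylcholine were also called on both sides within families. Of 10 serotonin receptor genes 4 were higher in the hippocampus, with Htr5b at 18.4 ± 3.73 against 2.95 ± 1.32 CPM (2.63 ± 0.28, adjusted p = 2.63e-05) and Htr1a, an inhibitory receptor on pyramidal cells, at 30.6 ± 8.15 against 7.59 ± 1.62 CPM (2.01 ± 0.22, adjusted p = 2.8e-05). The ion channel Htr3a (-1.63 ± 0.19), the excitatory receptor Htr2a (-1.62 ± 0.20) and Htr5a (-0.5 ± 0.14) were higher in the amygdala; Htr5a was not called without hippocampus library 13 (adjusted p = 0.0576) or amygdala library 15 (adjusted p = 0.0557). Of 11 dopamine and adrenergic receptor genes 6 were higher in the amygdala and 1, Adra1d, in the hippocampus. Adra1d stood at 118, 108, 106, 128 and 142 CPM against 13.6, 26.3, 13.1, 29.9 and 21.5 CPM (2.53 ± 0.22, adjusted p = 5.18e-06), whereas Adra2a stood at 6.74, 7.22, 8.62, 9.17 and 7.1 CPM against 31.8, 26.8, 29.5, 31.1 and 30.3 CPM (-1.94 ± 0.12, adjusted p = 4.04e-07). These adrenergic receptors, which couple to different G proteins, thus had opposite sides and no overlapping library. The dopamine receptors Drd1 and Drd2 were higher in the amygdala, with log2 fold changes of -1.25 ± 0.25 and -2.33 ± 0.44. Among 14 acetylcholine receptor genes, 4 called in each direction, the nicotinic subunit Chrna4 reached 45.7, 42.5, 55.8, 47.4 and 43 CPM in the amygdala and 9.44, 8.25, 10.9, 6.23 and 6.36 CPM in the hippocampus (-2.5 ± 0.16, adjusted p = 7.24e-07), and the muscarinic receptor Chrm3 was higher in the hippocampus (0.93 ± 0.10, adjusted p = 4.03e-05).

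Several channel genes differed widely. Of 57 potassium channel genes 16 were higher in the hippocampus, or 24 without hippocampus library 14. In the amygdala 12 were higher, or 10 to 14 with 1 library left out. Kcnf1, a silent subunit that modifies Kv2 channels, gave 62.6, 59.8, 77.2, 61.8 and 45.7 CPM in the amygdala and 5.06, 5.28, 5.39, 5.72 and 4.3 CPM in the hippocampus (-3.57 ± 0.15, adjusted p = 3.64e-08). The sodium-activated channel genes Kcnt1 and Kcnt2 were opposite: Kcnt1 was higher in the amygdala at 166 ± 9.38 against 41.4 ± 4.34 CPM (-2.0 ± 0.09, adjusted p = 5.53e-08), and Kcnt2 higher in the hippocampus at 57.2 ± 2.77 against 22.7 ± 3.61 CPM (1.34 ± 0.11, adjusted p = 4.3e-06). Of 37 genes of sodium, calcium, HCN and TRPC channels 14 were higher in the hippocampus, or 19 without hippocampus library 14. In the amygdala 7 were higher, or 7 to 8 with 1 library left out. Scn3b and Scn4b, beta subunits of sodium channels, were higher in the hippocampus by 1.72 ± 0.13 and 1.92 ± 0.13. Hcn4, a pacemaker channel, was at 14 ± 2.05 CPM in the amygdala and 1.79 ± 0.457 CPM in the hippocampus (-2.96 ± 0.20, adjusted p = 9.44e-07).

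Among 23 calcium-binding proteins and sensors 5 were higher in the hippocampus and 6 in the amygdala. Hpca, which encodes hippocalcin, a calcium sensor named after the hippocampus, gave 471, 614, 576, 565 and 530.4 CPM there and 64.5, 92.2, 55.3, 116 and 56.6 CPM in the amygdala (2.84 ± 0.20, adjusted p = 1.27e-06). The gene model of Hpca overlaps that of Tmem54. The related gene Hpcal1 went the other way at 35.4 ± 11.2 against 150.4 ± 18.5 CPM (-2.09 ± 0.18, adjusted p = 6.04e-06). Cabp7, a sensor of the calmodulin family whose gene model overlaps that of Zmat5, reached 432 ± 47 against 82.1 ± 20.8 CPM (2.4 ± 0.17, adjusted p = 1.3e-06).

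Genes of hormone and growth factor action were called on both sides. Of 18 genes of steroid and thyroid hormone action 4 were higher in the hippocampus and 5 in the amygdala. Nr3c2, the mineralocorticoid receptor that is typical of hippocampal neurons, stood at 76.9 ± 23.4 against 27.2 ± 5.33 CPM (1.5 ± 0.23, adjusted p = 0.000493), and Fkbp5, a cochaperone of steroid receptors, was higher with it (0.78 ± 0.11). Esr1, the oestrogen receptor, and Cyp19a1, the aromatase that makes oestrogen, were scarce and higher in the amygdala, at 3.52 ± 0.577 against 1.5 ± 0.657 CPM (-1.25 ± 0.29) and 2.4 ± 0.882 against 0.841 ± 0.264 CPM (-1.5 ± 0.33); the libraries overlapped for Cyp19a1. Dio3, which inactivates thyroid hormone, gave 4.95, 5.35, 6.58, 4.85 and 5.61 CPM in the amygdala and 0.674, 0.243, 0.582, 1.03 and 0.413 CPM in the hippocampus (-3.21 ± 0.31, adjusted p = 1.23e-05).

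Retinoic acid genes leaned to the amygdala, with 11 of 19 higher there and 1 in the hippocampus (median -0.56). Rxrg, a retinoid receptor of striatal neurons, was at 27.4 ± 4.01 against 6.65 ± 2.79 CPM (-2.03 ± 0.23, adjusted p = 4.25e-05), and the synthesising enzymes Aldh1a3 and Aldh1a2 differed by -4.03 ± 0.49 and -2.88 ± 0.37. Aldh1a1, another enzyme of this step, was the member on the side of the hippocampus (1.83 ± 0.23, adjusted p = 0.000103). Aldh1a2 is also on the list of meninges described below, and its part in the result was not tested.

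Of 31 neurotrophic factors and receptors 7 were higher in the hippocampus and 6 in the amygdala. Bdnf, brain-derived neurotrophic factor, gave 48.1, 43.8, 54.1, 39.4 and 55.5 CPM in the hippocampus and 18.2, 13.5, 14.8, 15.8 and 7.4 CPM in the amygdala (1.79 ± 0.20, adjusted p = 3.71e-05). Its receptor gene Ntrk2 went the other way at 601 ± 97.6 against 1094 ± 160.2 CPM (-0.86 ± 0.13, adjusted p = 0.000514), and Gfra2, a receptor of neurturin, did so too (-1.5 ± 0.17). Of 19 immediate early genes, which report recent activity of neurons, 5 were higher in the hippocampus, led by Nr4a3 (1.11 ± 0.12), and 1, Egr2, in the amygdala (-2.01 ± 0.35).

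Guidance and adhesion genes carried large differences in adult tissue. Among 21 ephrins and Eph receptors 8 were higher in the hippocampus and 5 in the amygdala, the latter being 3 without hippocampus library 13. Epha4, a receptor on CA1 and granule cells, stood at 428, 398, 333, 443 and 487 CPM in the hippocampus and 88.8, 111, 104, 118 and 87.5 CPM in the amygdala (2.04 ± 0.12, adjusted p = 4.26e-07), and Epha7 went with it (2.38 ± 0.18). The ligands Efnb2 and Efnb1 were higher in the amygdala (-1.83 ± 0.11 and -0.97 ± 0.12). Of 47 semaphorin, plexin, netrin and slit pathway genes 11 were higher in the hippocampus, or 20 without hippocampus library 14, and 16 in the amygdala. Sema3a, a secreted repellent, was at 10, 11.8, 15.9, 10.3 and 8.14 CPM in the amygdala and 0.422, 0.728, 0.529, 1.25 and 0.413 CPM in the hippocampus (-4.05 ± 0.31, adjusted p = 2.17e-06). Nrp1, the receptor subunit that binds it, was the reverse at 132 ± 24.6 against 43.2 ± 4.39 CPM (1.61 ± 0.13, adjusted p = 4.19e-06). Sema7a was higher in the hippocampus (1.9 ± 0.10) and Plxnd1 in the amygdala (-1.88 ± 0.13).

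Among 19 cadherins 4 were higher in the hippocampus, with Cdh9, an adhesion protein of CA3 and granule cells, at 54.2 ± 9.2 against 19.8 ± 2.95 CPM (1.46 ± 0.14, adjusted p = 1.23e-05). On the amygdala side, 8 were called, with Cdh4 at 36 ± 8.52 against 6.55 ± 1.94 CPM (-2.47 ± 0.23, adjusted p = 8.59e-06) and Cdh1 at 10.8 ± 2.83 against 0.874 ± 0.393 CPM (-3.64 ± 0.33, adjusted p = 7.58e-06). Synaptic organizers had 9 of 37 members higher in the hippocampus, among them Lrrtm4 (0.96 ± 0.11), and 7 higher in the amygdala, among them the cerebellin gene Cbln1 (-1.8 ± 0.27) and Nrxn2 (-0.67 ± 0.10). Of 39 Wnt pathway genes 7 were called in each direction. The amygdala side had 4 without hippocampus library 13 or without amygdala library 33, a share near the 11.5% of all tested genes. Rspo2, Dkk3, an inhibitor-like secreted protein (1.47 ± 0.10), and the ligand Wnt4 (1.39 ± 0.11) led the hippocampus side, and the receptor Fzd2 (-1.18 ± 0.14) the other.

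Glial, vascular and meningeal genes also moved with region, and their part in the neuronal differences was not tested. Of 27 tested astrocyte genes 15 were higher in the amygdala and 0 in the hippocampus (median -0.47), with summed levels of 7065 to 9684 CPM in the hippocampus and 10226 to 13770 CPM in the amygdala. The water channel gene Aqp4 gave 471 ± 36.2 against 823 ± 150.1 CPM (-0.8 ± 0.12, adjusted p = 0.000358), and Itih3, a hyaluronan-binding inhibitor, 238 ± 54.4 against 837 ± 135 CPM (-1.81 ± 0.16, adjusted p = 5.85e-06). Genes listed for oligodendrocytes and myelin were the reverse: 14 of 20 were higher in the hippocampus and 0 in the amygdala (median 0.72). The smallest p among them was that of Mal2, which is not specific to oligodendrocytes (log2 fold change 0.83, adjusted p = 2.63e-05). Summed levels overlapped, at 5646 to 11479 CPM in the hippocampus and 4720 to 6015 CPM in the amygdala. Libraries of the regions were apart for 3 of the 20 genes (18.7% of all tested genes). Mbp, myelin basic protein, stood at 2991, 5221, 5887, 4452 and 2710.1 CPM in the hippocampus libraries and 2248, 2659, 2319, 1998 and 2302 CPM in the amygdala libraries (0.88 ± 0.20, adjusted p = 0.00575). The count of this list depended on single libraries. It fell to 8 without hippocampus library 13, to 9 without hippocampus library 15, to 8 without amygdala library 15 and to 7 without amygdala library 33. With the library number as a fixed block it was 3, and in a test for more than a 2-fold change it was 0. Of 11 genes of oligodendrocyte precursors 3 were higher in the amygdala (median -0.23). In the hippocampus 1 was higher, Bcas1 (0.61 ± 0.12), a share near the 11.4% of all tested genes. Pdgfra, the growth factor receptor of these precursors, stood at 134 ± 14.5 CPM in the amygdala against 73.3 ± 8.3 CPM (-0.87 ± 0.10, adjusted p = 5.6e-05).

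Of 19 microglial genes 6 and of 19 genes of endothelium and mural cells 9 were higher in the amygdala, and 0 of either list in the hippocampus. For these 4 lists, the side with 0 calls by edgeR also had 0 calls by DESeq2 and by limma with voom, and 0 genes there had an unadjusted p under 0.05. The microglial count was 15 without hippocampus library 14. Csf1r, the receptor that microglia need to survive, was at 102 ± 11.4 against 146 ± 18.9 CPM (-0.51 ± 0.11, adjusted p = 0.00435), and Kdr, a receptor of vascular endothelial growth factor, at 10.9 ± 2.13 against 23 ± 4.26 CPM (-1.08 ± 0.16, adjusted p = 0.000408). Of 20 meningeal and fibroblast genes 15 were higher in the amygdala and 0 in the hippocampus by edgeR (median -1.66). Slc13a3, a carrier of dicarboxylates in leptomeninges, had 8.52, 8.74, 12.3, 15.6 and 7.77 CPM in the hippocampus and 62.9, 57.8, 81.7, 40.4 and 108 CPM in the amygdala (-2.72 ± 0.27, adjusted p = 1.6e-05), and the collagen gene Col1a1 had 8.38 ± 4.76 against 39.8 ± 10.9 CPM (-2.26 ± 0.33, adjusted p = 0.000351). The summed level of the meningeal list was 511 to 1005 CPM in the amygdala and 112 to 232 CPM in hippocampus libraries 13, 14, 15 and 33, but 962 CPM in hippocampus library 11.

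Choroid plexus genes had the highest median of any glial or vascular list, 1.55, yet 1 of 19 was called, Calml4, a calmodulin-like gene (2.45 ± 0.45, adjusted p = 0.00165). The summed level was 7022 CPM in hippocampus library 11, 134 to 492 CPM in the other 4 hippocampus libraries and 159 to 792 CPM in the amygdala. Without hippocampus library 11, 4 choroid plexus genes were called higher in the amygdala. Genes listed for the hypothalamus, which adjoins the amygdala, were higher in the amygdala in 4 of 10 tested. With any single hippocampus library left out 7 to 8 were, in fits that chose the tested genes anew. The highest hippocampus library of that list had a summed 118 CPM and the lowest amygdala library 179 CPM. Baiap3 alone made up a large part of the amygdala sums. Besides Baiap3 and Dlk1 the 4 called genes were Magel2, an imprinted gene (-2.3 ± 0.20), and Gpr101, an orphan receptor (-3.19 ± 0.43). The wake-promoting peptide gene Hcrt was called higher in the hippocampus, at 2.17 ± 1.27 against 0.649 ± 0.299 CPM (1.74 ± 0.51, adjusted p = 0.0276). Its libraries overlapped, and the call was lost without hippocampus library 15 or amygdala library 14, 33 or the unnumbered one, with adjusted p-values of 0.0667 to 0.0762.

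**Figure D5:**
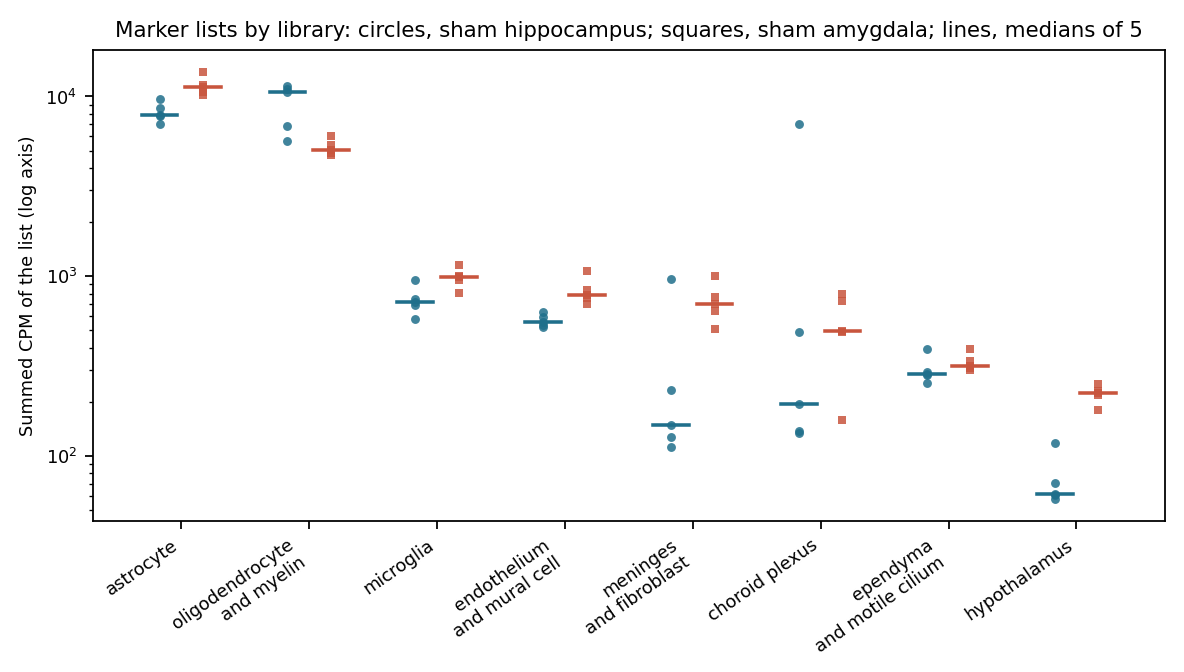
Summed CPM, on a log axis, of 8 marker lists in each sham library, with blue circles for the hippocampus, red squares for the amygdala and lines at the medians of 5 libraries. The choroid plexus and meningeal values of hippocampus library 11, 7022 and 962 CPM, lie far above those of the other 4 hippocampus libraries.

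Genes encoded by mitochondrial DNA took 10.3 ± 1.30% of counts in the hippocampus (8.57% to 11.6%) and 14.2 ± 1.88% in the amygdala (11.8% to 16.8%). The groups did not overlap, and the exact permutation test over 252 arrangements gave p = 0.00794 (two-sided, n = 5 per region). This is the smallest p the test can give, and it follows from the lack of overlap. Not all of these genes were called singly: Mt-co1 was called higher in the amygdala (-0.48 ± 0.13, adjusted p = 0.0156), while Mt-co3 was not called (-0.43 ± 0.15, adjusted p = 0.0529). Of 24 tested gene records of nuclear respiratory chain genes 0 were called by edgeR (median 0.13). On the side of the hippocampus 3 had an unadjusted p under 0.05 and DESeq2 called 1. Their summed level was 5966 CPM in hippocampus library 14 and 3650 to 4126 CPM in hippocampus libraries 11, 13, 15 and 33. In the amygdala it was 3617 to 4182 CPM. The part of library 14 in the positive median was not tested. Ribosomal protein genes gave 2 calls of 28 gene records, both higher in the amygdala and both with overlapping libraries. The count rested on hippocampus library 14, which had the highest summed level of these genes: without it 23 were called higher in the amygdala. Without hippocampus libraries 11 and 14 the count was 18, and with the trend over gene length removed it was 8. Ribosomal protein genes have many near-identical processed copies in the genome, so their counts are uncertain. Rps6 had 84.8, 69.2, 2.91, 91.8 and 74.1 CPM in the amygdala and 1.52, 2, 17.7, 2.42 and 1.49 CPM in the hippocampus, so that amygdala library 14 lay with the hippocampus libraries (-3.61 ± 0.85, adjusted p = 0.0081).

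The blast libraries of the same regions, which share no library with the sham comparison but stand in the same tables, gave the contrast a second time. There 5596 of 15309 tested genes (36.6%) were called, 2813 (18.4%) higher in the hippocampus and 2783 (18.2%) higher in the amygdala. Of the genes called higher in the sham hippocampus 1715 were tested in blast libraries, and 1387 of them (80.9%) were called the same way. For the amygdala these numbers were 1725 and 1431 (83.0%). The leading genes kept their side, with blast log2 fold changes of 4.52 ± 0.45 for Nhlh1, 4.18 ± 0.12 for Robo3, 3.0 ± 0.08 for Prox1, -3.45 ± 0.14 for Baiap3 and -3.16 ± 0.36 for Foxp2. A test of whether the regional difference itself differed between blast and sham called 0 of 15837 genes by edgeR (0%), with 792 at an unadjusted p under 0.05 and a smallest adjusted p of 0.846. The methods of DESeq2 and of limma with voom also called 0 genes. This leaves differences too small for 5 libraries a group undetected and does not show that the contrast was equal.

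A single gene was called in opposite directions, Mif, a cytokine gene, named here after its values were seen. Among sham libraries it had 1946 reads in hippocampus library 13 and 8 to 41 reads in the other 9, which gave a log2 fold change of 4.62 ± 1.41 (adjusted p = 0.0326). Among blast libraries it had 1363 reads in amygdala library 4 and 15 to 34 reads in the other 9. Without sham hippocampus library 13 the log2 fold change of Mif in the sham libraries was 0.60 (adjusted p = 0.362), and without any single amygdala library its adjusted p was 0.0636 to 0.0787.

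The anterior cortex and cerebellum of the same sham groups place these levels, scaled together for the 4 tables and with no test, since each table was deposited apart. Prox1 stood at 20.5 ± 7.74 CPM in the anterior cortex and 57.1 ± 5.04 CPM in the cerebellum, whose granule cells also express it, and C1ql2 at 2.96 ± 1.49 and 1.91 ± 0.787 CPM. Nhlh1 had no read in any anterior cortex library, which allows up to 0.266 CPM in a library, and stood at 0.0643 ± 0.0912 CPM in the cerebellum and 16.1 ± 2.63 CPM in the hippocampus. Robo3 had 23.1 ± 8.11 CPM in the anterior cortex, against 80.3 ± 23.4 CPM in the hippocampus and 3.44 ± 0.392 CPM in the amygdala on the same scale. Foxp2, Chrna4 and Kcnf1 had 25 ± 10.6, 47.7 ± 16.9 and 76.3 ± 15.6 CPM in the anterior cortex, each above its hippocampus mean. The Foxp2 mean also lay above every amygdala library listed above, and the Kcnf1 mean above all but the highest. Those amygdala levels were scaled with the hippocampus only. Baiap3, by contrast, had 29.6 ± 9.55 CPM in the anterior cortex and 5.33 ± 0.787 CPM in the cerebellum, both below its amygdala level.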

How the data were processed

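Tissue RNA was extracted with Qiazol and RNeasy and made into libraries with a NEBNext Ultra kit, per the labels' protocols. Each regional table holds raw counts of reads by gene, as deposited; CASAVA is named in the submitters' processing notes, and the aligner, counting tool, annotation, strand setting and genome build are named in no source used here. The hippocampus and amygdala tables were joined by gene identifier: 22409 of 23485 and 23783 genes were in both. From these counts, edgeR 4.0.16 in R 4.3.3 (filterByExpr, TMM, quasi-likelihood F test, two-sided, Benjamini-Hochberg over all tested genes) fitted the 10 sham libraries, the 10 blast libraries and the interaction over 20; the alternatives used DESeq2 1.42.0, limma 3.58.1 and other filters. The scripts were tested on simulated data. No pair of sham libraries of a region agreed within sampling noise by a chi-square comparison of counts; blast libraries were not compared in this way. Total counts of 11589358 or more per library set the precision.

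Members and gene lists were chosen with earlier results of these data known. Genes were named by 3 rules: among called genes with non-overlapping libraries and at least 5 CPM in the higher region, the 12 largest changes per direction; of each list, up to 3 called members per direction with the smallest p; and the highest members of marker lists. Some genes that these rules pick are not reported here. Other genes named were chosen after their values were seen. Promoter sequences are RefSeq's.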

Additional observations from a re-analysis of the deposited data

Results flagged for a closer look

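In 364 groups of 5 libraries (174 genes named in the text and 8 marker lists, in each region), 30 held a library whose gap to the nearest other library exceeded 0.71 of the range of the group; chance alone gives about 1 in 20 such groups. Hippocampus library 14 accounted for 10 of them.

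Hippocampus library 11 held the highest summed CPM of its region for the lists of choroid plexus (7022 CPM), ependyma and motile cilium (391.9 CPM against 254 to 294 CPM in the others) and meninges and fibroblasts (961.9 CPM), and the highest Coch (14.25 CPM) and Dcn (20.66 CPM). Hippocampus library 14 was the highest of its region for the list of the hypothalamus (118.4 CPM) and for Cartpt (5.447 CPM against 1.43 to 2.49 CPM), Pvalb (45.27 CPM), Rps6 (17.66 CPM), Rxrg (11.53 CPM) and Trim54 (2.485 CPM). It was the lowest for Grik4 (91.49 CPM), Neto1 (99.68 CPM against 152 to 165 CPM), Nr3c2 (35.64 CPM against 80.03 to 90.6 CPM) and Zfhx4 (13.54 CPM against 22.2 to 23.03 CPM).

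Among the other hippocampus libraries, 13 was the highest for Mif (118.1 CPM against 0.991 to 2.17 CPM) and Avp (7.281 CPM), 15 the highest for Gad2 (157.9 CPM), and 33 the highest for Gabra4 (185.7 CPM) and Sstr3 (53.2 CPM). Among the amygdala libraries, 14 was the highest for Cdh4 (50.92 CPM) and Gabra3 (77.98 CPM) and the lowest for Calml4 (0.6116 CPM) and Rps6 (2.905 CPM against 69.2 to 91.8 CPM). Amygdala library 15 was the lowest for Aldh1a3 (1.898 CPM) and the highest for Grik1 (24.54 CPM) and Npy2r (8.507 CPM). Amygdala library 33 was the highest for Avp (41.5 CPM against 0.229 to 6.12 CPM), Dcn (32.99 CPM) and Itih3 (1074 CPM).

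Genes listed in one regional table only took no part in the comparison. The table of the hippocampus alone listed 1076 genes, of which 6 had at least 10 reads over its sham libraries, with the most in Gngt1 (46 reads). The table of the amygdala alone listed 1374, of which 14 had at least 10 reads, with the most in Rack1 (205 reads).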

How the results depend on the processing

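All 202 genes named by rule kept their direction in every alternative run, and 99 stayed called in every one; a minimum change of 2-fold (glmTreat) ended 103 calls, the fixed replicate block 35 and each other alternative at most 7. With glmTreat the sham count was 351 (142 higher in the hippocampus, 209 in the amygdala) and the blast count 473 (175 and 298), fewer because the test asks for more than 2-fold. In 1 model of all 8 groups the blast count higher in the hippocampus was 1830. Leaving out 1 library each, the sham count ran from 2730 to 4684 (hippocampus 1265 to 2309, amygdala 1423 to 2375), the blast count from 4827 to 5742 (2421 to 2906 and 2406 to 2836), and the count of the difference between blast and sham from 0 to 1, that 1 being LOC103690054 without sham hippocampus library 15 (log2 11.12, adjusted p = 0.0325), named after its value was seen. Without hippocampus libraries 11 and 14 together the sham count was 4457; the causes were not tested. Same-numbered sham libraries had correlations of deviations from the region mean of 0.01 (number 11), -0.131 (14), 0.14 (15) and 0.021 (33). Not every library correlated best with its own number. These correlations cannot decide whether equal numbers mean the same rat, since differences between single libraries also enter them. With the number as a fixed replicate block the sham count was 1361 (615 and 746), 1352 of them shared with the count without the block. In that fit the unnumbered amygdala library and hippocampus library 13 were given no partner and so added nothing to the contrast. The column of the unnumbered library also has the number 13, but no amygdala title has it. It was therefore not paired with hippocampus library 13, and a fit with that pair was not run. The correlation of that pair was 0.129. The lower count therefore also reflects fewer libraries, and the parts of block and lost libraries were not separated. With a random block the sham count was 3181. The blast count was 5401 with a fixed block, where every number had a library in both regions. Some genes that were not called changed sign: with the fixed block Fezf2 was at -0.0689 and Npy1r at 0.0552, and with 1 library left out Calb1 ranged from -0.145 to 0.0339, Fezf2 from -0.0339 (without the unnumbered amygdala library; -0.0237 without hippocampus 14) to 0.180 and Npy1r from -0.112 to 0.0050. Of the genes named in the text, limma with voom ended the calls of Rps6 (adjusted p = 0.0851), Hcrt (0.102) and Mif (0.348). Depth limits genes near 1 CPM, where a library holds few reads.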

Other observations

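Genes of neurogenesis and proliferation, not described above, were called on both sides. Of 16 tested genes 9 were higher in the amygdala and 3 in the hippocampus, although the dentate gyrus is the region known for neurons born in adulthood. Dcx, which encodes the microtubule protein doublecortin of migrating neurons, stood at 45.2, 46.6, 51.1, 50.3 and 44 CPM in the amygdala libraries and at 23.3, 24, 15, 22.4 and 20.2 CPM in the hippocampus libraries, without overlap (-1.18 ± 0.13, adjusted p = 2.61e-05). Sox11, a factor of young neurons, was also higher in the amygdala (-1.42 ± 0.30, adjusted p = 0.00424). Neurog2, a factor of neuronal precursors, was scarce and higher in the hippocampus at 2.44 ± 0.689 against 0.649 ± 0.139 CPM (1.89 ± 0.29, adjusted p = 0.000468). The proliferation antigen gene Mki67 was higher there too, at 11.5 ± 2.89 against 5.68 ± 1.51 CPM, with overlapping libraries (1.02 ± 0.22, adjusted p = 0.00565).

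Genes of cortical layers were called higher in the amygdala in 8 of 20 tested and higher in the hippocampus in 4. Foxp2, also on the list of subpallial factors, was among those higher in the amygdala. Ccn2, a matricellular protein known from subplate neurons, gave 32.4 ± 6.69 against 12.4 ± 3.42 CPM (-1.38 ± 0.20, adjusted p = 0.00026), and Bcl11b, a factor of deep-layer and granule neurons, 102 ± 16.1 against 195 ± 40.9 CPM (0.93 ± 0.15, adjusted p = 0.000688). Of 17 receptors for cannabinoids, adenosine and purines 2 were higher in the hippocampus, a share near the 11.4% of all tested genes, and 4 in the amygdala. Adora1, the inhibitory adenosine receptor, had 186, 196, 129.7, 204 and 215 CPM in the hippocampus and 79.8, 85.3, 81.6, 89.9 and 87.8 CPM in the amygdala (1.13 ± 0.12, adjusted p = 2.72e-05), while the cannabinoid receptor gene Cnr1 stood at 204 ± 34.1 and 183 ± 17 CPM and was not called (0.15 ± 0.11, adjusted p = 0.367). Of 15 genes of thalamus and habenula 3 were called on each side, or 5 on each side without hippocampus library 14 and 2 on the side of the hippocampus without library 11. They included Lhx9, a LIM homeodomain factor, at 7.08 ± 0.725 CPM in the hippocampus and 2.04 ± 0.538 CPM in the amygdala (1.78 ± 0.21, adjusted p = 5.25e-05). Of 20 genes of ependyma and motile cilia 1 was called by edgeR, Drc1, higher in the amygdala (-0.59 ± 0.15, adjusted p = 0.014). The count there was 2 without hippocampus library 11 or amygdala library 15 and 4 without hippocampus library 14. On the side of the hippocampus edgeR called 0, with 3 at an unadjusted p under 0.05, while DESeq2 called 3 and limma with voom 1; edgeR called 2 there without hippocampus library 33 or without amygdala library 33 and 1 without hippocampus library 14.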
